A study of Mus musculus with 6 samples.

Results

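Tbx2, Tbx3, Tbx4, Tbx5, Tbx18 and Tbx20 are T-box transcription factor genes with known roles in the heart or in the mesenchyme behind it. They were taken by symbol from the deposited gene list, where each symbol stood once, and are 6 of 32285 genes. Their raw molecule counts were read in mouse embryonic cells that carried at least 2500 detected genes and at most 10% mitochondrial molecules. The labels describe 6 wild-type C57BL/6 samples of dissected heart-forming tissue at E10.5 (embryonic day, counted from the plug), fathered by males with normal blood glucose. In 3 samples the mothers had been pretreated with vehicle and had normal blood glucose, and in the other 3 samples they had been pretreated with streptozotocin (STZ), which kills the insulin-producing cells of the pancreas, and were hyperglycemic. Non-cardiac mesoderm, ectoderm and endoderm were in the same dissections, per the labels, and the design text speaks of 3 or more replicate embryos per genotype. The descriptions of the samples refer to open chromatin, but the kit and molecule are those of RNA sequencing, and the matrix holds RNA counts per gene.

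T-box proteins bind DNA through a shared domain, the T-box, that reads a short element with AGGTGTGA at its core. Tbx5 and Tbx20 can activate cardiac genes together with Nkx2-5 and Gata4. Tbx2 and Tbx3 act as repressors at the same kind of element and keep the myocardium of the atrioventricular canal and of the conduction system from taking on working chamber character. Tbx18 marks the sinus horns and the epicardium, and Tbx4 with Tbx5 acts upstream of Fgf10 in lung and trachea mesenchyme.

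The matrix pools 6 libraries that differ by a barcode suffix, and the files do not tie a suffix to a vehicle or STZ sample. No comparison of the treatments was therefore made, no p-value is given, and each level is stated with its value or range over the unassigned libraries. Of 53362 barcodes, 35962 passed both limits, 4903 to 7136 per library with a median of 30533 to 35634 unique molecular identifiers (UMIs, 1 per captured RNA molecule) per cell. Library totals ran from 200462921 to 248426458 UMIs. Library 1 stood apart, with 383 CPM (UMIs of a gene per 1000000 UMIs) of Xist, an RNA from the inactive X chromosome, against at most 0.342 in the other libraries. Ddx3y, on the Y chromosome, stood at 0.0908 CPM there and between 33.8 and 38.1 in the other libraries. In all, 283 retained cells (0.787%) shared their barcode sequence with a retained cell of another library, and any pair of libraries shared 5 to 15. Counting every barcode of the matrix, 2890 retained cells (8.04%) had a copy elsewhere, with a median of 60174.5 UMIs against 31447 in the others.

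Cells were sorted by marker genes into 21 gates, none of which used a T-box member as a marker. A cell entered a gate when a majority of the gate's markers had at least 2 UMIs. Of the 17898 cells that entered 1 broad gate, 509 cardiomyocytes, 433 splanchnic cells and 2710 epithelial cells fell in none of its finer gates, and the rest form the 21 groups below. Another 16537 cells entered no gate, and 1527 that passed several were set aside. Of 38 checks with genes outside the gate's own markers, 32 were at least 2-fold higher in their gate than in the other gated cells. Some of these genes mark or split another gate, and Twist1 and Nkx2-5 were each used more than once. No check covered the epithelial gate or the finer gates, such as the canal and foregut-side gates. The gate called pharyngeal mesoderm (Isl1, Tbx1, Fgf10, Fgf8, Mef2c, Six2) went against its check for Nkx2-5 and Wnt11, at 0.559 and 0.126 times the level of other cells, so that name stands for its markers only. Ungated cells held 54.0% of the Tbx2 UMIs, 51.7% of Tbx3, 64.5% of Tbx4, 33.1% of Tbx5, 21.2% of Tbx18 and 11.01% of Tbx20, so the gates describe the defined part of each pattern. Erythroid cells, which should lack all 6 genes, held 0.0317 to 0.529 CPM of them, a background whose source was not tested. For Tbx3 it was 50 UMIs in 23 of 1421 cells. The 73 myeloid cells, which should lack them too, held 0.403 to 3.43 CPM on 2 to 17 UMIs per gene.

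In the mm10 genome the members form 2 linked pairs and 2 single genes. Tbx2 (chromosome 11, 85832551 to 85841948, plus strand) lies 44.5 kb before Tbx4 (85886422 to 85916097, plus strand). Tbx3 (chromosome 5, 119670669 to 119684724, plus strand) lies 148 kb before Tbx5 (119832668 to 119885219, plus strand). Tbx18 (87702800 to 87731260) and Tbx20 (24718138 to 24774303) are both on the minus strand of chromosome 9.

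The RefSeq promoter table (GRCm38.p6) held 3 of the 6 members, and the 250 bases before their start sites are shown as the sequence directly upstream of these members. Capitals mark matches, on either strand, to GGGCGG (the GC box), CCAAT (the CCAAT box) or TATAA (the core of the TATA box), and in the Tbx4 window TATAA matches on both strands with overlap. These occurred in 32.7%, 33.8% and 22.8% of 32851 windows of the same length.
Tbx20, chr9:24774304-24774553, minus strand: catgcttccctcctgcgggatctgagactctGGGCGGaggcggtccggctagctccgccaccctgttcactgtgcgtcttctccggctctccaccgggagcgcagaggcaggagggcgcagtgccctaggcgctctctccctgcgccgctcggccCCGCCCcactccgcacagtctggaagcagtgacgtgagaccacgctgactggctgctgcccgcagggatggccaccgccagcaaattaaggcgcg
Tbx18, chr9:87731261-87731510, minus strand: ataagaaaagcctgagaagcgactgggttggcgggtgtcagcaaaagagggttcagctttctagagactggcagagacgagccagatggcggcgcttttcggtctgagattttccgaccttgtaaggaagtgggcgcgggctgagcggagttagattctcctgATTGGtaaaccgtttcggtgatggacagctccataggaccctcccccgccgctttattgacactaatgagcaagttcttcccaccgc
Tbx4, chr11:85896515-85896764, plus strand: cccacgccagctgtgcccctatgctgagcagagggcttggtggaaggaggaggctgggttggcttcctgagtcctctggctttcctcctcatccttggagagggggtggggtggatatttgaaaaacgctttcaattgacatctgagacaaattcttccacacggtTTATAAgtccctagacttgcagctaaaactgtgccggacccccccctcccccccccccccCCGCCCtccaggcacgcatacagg
The Tbx20 window was 68.8% G or C with 22 CpG dinucleotides, the Tbx18 window 54.0% with 15, and the Tbx4 window 58.4% with 6, where the medians over all windows were 52.4% and 6. The Tbx4 start used by RefSeq lies 10.3 kb inside the longer gene annotated by GENCODE. Neither the T-box element AGGTGTGA (1.12% of windows), nor AGATAA, bound by GATA factors (9.99%), nor TNAAGTG, bound by Nkx2-5 (10.1%), occurred in any of the 3 windows.

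**Figure D1:**
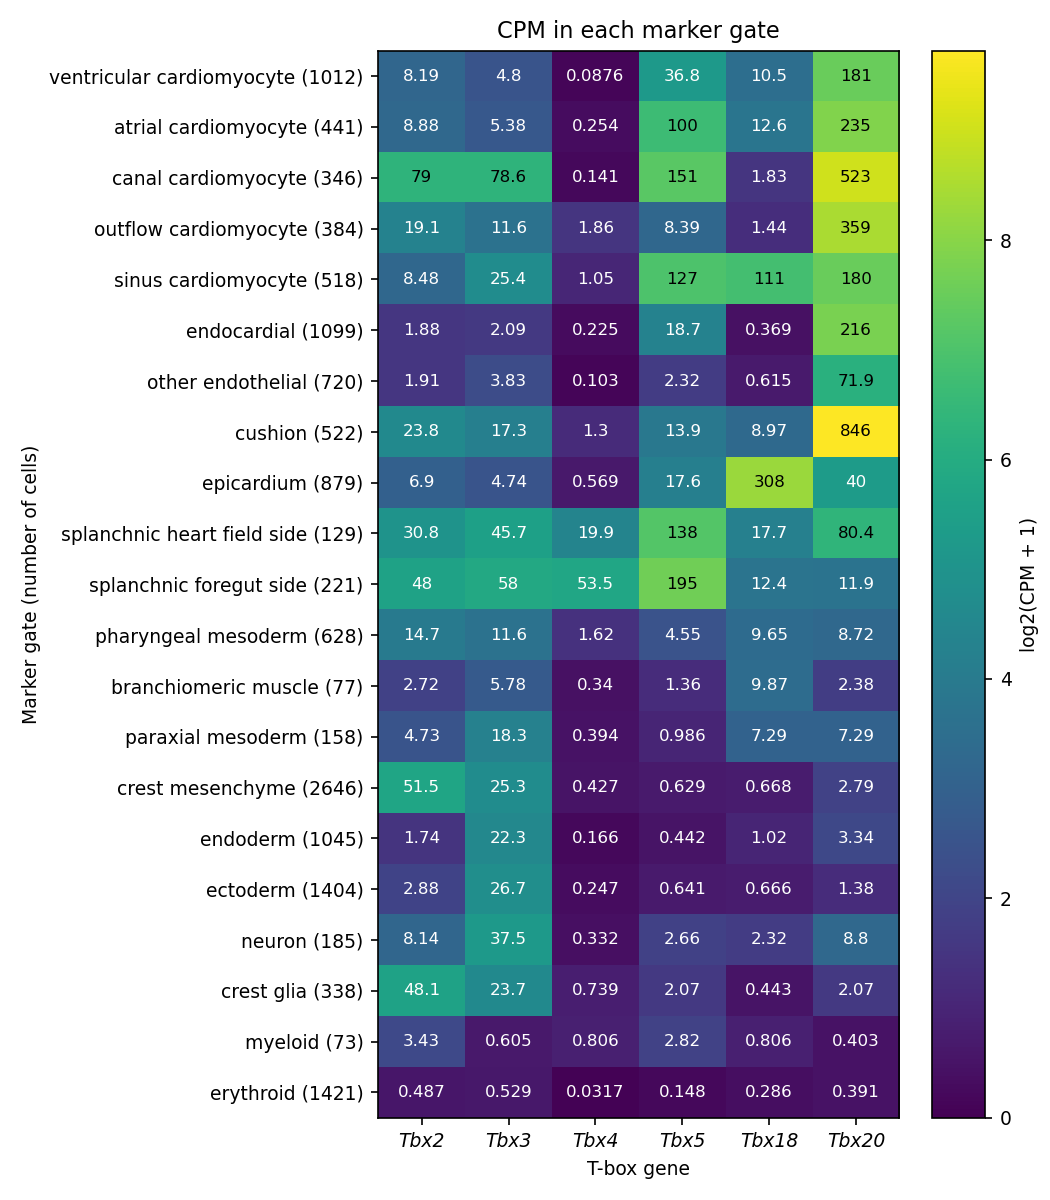
Pooled levels of the 6 T-box genes (columns) in 21 marker gates (rows, with the number of cells). Each square prints the CPM and is coloured by log2(CPM + 1). Tbx20 peaked at 846 in the cushion gate, Tbx18 at 308 in the epicardial gate, and Tbx4 at 53.5 in the foregut side of the splanchnic gate.

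Tbx2, a repressor of chamber genes, was highest in the canal gate of 346 cardiomyocytes, which were chosen by Bmp2, Rspo3, Msx2 and Cpne5. Its level there was 79.0 CPM (95% exact Poisson interval 74.5 to 83.8, counting error only), and the libraries ran from 57.8 through a median of 79.2 to 130.3. Ventricular cells (1012) held 8.19 (5.42 to 9.41 by library) and atrial cells (441) 8.88 (4.65 to 14.3). Every library's canal value was above every chamber value, and the canal level was 9.66-fold the ventricular and 8.90-fold the atrial level. The outflow gate (384 cells) held an intermediate 19.1 (14.1 to 26.2), and the sinus gate (518 cells) 8.48 (6.26 to 16.9). Outside the heart muscle, Tbx2 stood at 51.5 in neural crest mesenchyme (41.9 to 63.5), 48.1 in crest glia (34.5 to 70.7 over 5 libraries) and 48.0 on the foregut side of the splanchnic mesoderm (34.9 to 63.6 over 4 libraries). Those 3 gates did not differ beyond their spread. The canal exceeded the crest in 6 of 6 libraries, by 1.54-fold (1.44 to 1.64), although the ranges overlapped.

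Tbx3, the close relative of Tbx2 that maintains the pacemaker and conduction tissue, shared the canal as its leading gate at 78.6 CPM. The libraries ran from 68.3 through 72.9 to 110.7. The sinus gate, chosen by Shox2, Hcn4, Isl1, Vsnl1 and Smoc2, was the next heart muscle gate at 25.4 (13.9, 27.6 and 34.3 as lowest, median and highest library). Atrial cells held 5.38 (3.89 to 12.5) and ventricular cells 4.80 (2.63 to 7.501). Neither the canal nor the sinus range touched the atrial range, and the sinus level was 4.73-fold the atrial level (3.81 to 5.90). Tbx3 separated from Tbx2 outside the heart: it was at 37.5 in neurons, 26.7 in ectoderm and 22.3 in endoderm, where Tbx2 was at 8.14, 2.88 and 1.74. On the foregut side of the splanchnic mesoderm Tbx3 stood at 58.0 (52.1 to 90.4 over 4 libraries), below the canal in 4 of 4 libraries, by 1.35-fold (1.21 to 1.51).

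Tbx5, an activator of chamber and septal genes, was lowest in the outflow and highest in the canal among the 5 heart muscle regions. The outflow gate had the lowest heart muscle level, 8.39 CPM (2.29, 7.83 and 20.4 as lowest, median and highest library). The ventricular gate followed at 36.8 (31.8, 36.1 and 43.1), with no overlap between these ranges and a ratio of 4.38 (3.65 to 5.30). Atrial cells held 100.4 (92.1, 101.3 and 117.4), sinus cells 127 (114, 127 and 149) and canal cells 151 (133, 156 and 174). Atrial values lay above all ventricular values, by 2.73-fold (2.57 to 2.91), and canal values above all atrial values. Sinus cells exceeded atrial cells in 6 of 6 libraries, by 1.27-fold (1.19 to 1.35), with overlapping ranges. The highest level of any gate was outside the heart muscle, on the foregut side of the splanchnic mesoderm, at 195 (151 to 247 over 4 libraries). The heart field side of the splanchnic mesoderm held 138.0 (144 and 160 in the 2 libraries with enough cells). Against the canal, the ratio of canal to heart field side was 1.10 (1.01 to 1.19) and the canal was higher in 0 of these 2 libraries. The heart field side exceeded the sinus gate in both, without overlap in those libraries, but the pooled ratio of 1.08 had an interval that included 1 (0.995 to 1.18). In the endocardium Tbx5 was at 18.7 (12.2 to 27.4), 8.04-fold its level in other endothelial cells, and those ranges did not overlap.

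Within the ventricular gate, Tbx5 and Tbx20 were split by Hand1, which marks the left ventricle and its precursors, a contrast chosen after its values were seen. With each cell thinned to 20000 UMIs, 475 ventricular cells with a Hand1 UMI held 48.1 CPM of Tbx5 and 494 cells without one held 30.2. The ratio was 1.59 (1.38 to 1.85), in the same direction in 6 of 6 libraries. Tbx20 was likewise higher, at 227 against 144, in 6 of 6 libraries. Tbx2 stood at 8.84 against 11.4 and was higher with Hand1 in 2 of 6 libraries.

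Tbx20, needed for growth of the chambers and for the valves, was at 180.0 CPM or more in each of the 5 regional heart muscle gates, where no other member exceeded 151. Cushion mesenchyme, the forerunner of the valves, led at 846 (778, 863 and 930 as lowest, median and highest library). The canal gate held 523 (437, 541 and 588) and the outflow gate 359 (287, 366 and 412), with no overlap between neighbours in this order. Atrial cells stood at 235 (176 to 328) and endocardial cells at 216 (152 to 237), with overlapping ranges. Ventricular (181, 165 to 190) and sinus cells (180.0, 151 to 202) did not differ beyond their spread. Endocardium exceeded other endothelium 3.01-fold, although the libraries of the other endothelial gate ranged from 30.7 to 134. Without thinning, a Tbx20 UMI was found in 75.9% of endocardial cells and in 18.1% of other endothelial cells, so most of the latter had none. With looser gates, chosen after seeing the data, in which 50% of the markers was enough, the canal led with 508 and the cushion gate held 456. On the heart field side of the splanchnic mesoderm Tbx20 was at 80.4, and on its foregut side at 11.9, a ratio of 6.74 (5.38 to 8.51) that held in both libraries compared. Cells that passed both the endothelial and the cushion gates, and were set aside, numbered 230 and held 564.5.

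Tbx18, required in the sinus horns and carried by the epicardium, had 2 separate peaks. The epicardial gate of 879 cells stood at 308 CPM (251, 308 and 341 as lowest, median and highest library). Sinus cardiomyocytes held 111 (83.7, 103 and 156), with no overlap, and the ratio was 2.78 (2.65 to 2.92), or 1.67 with the looser gates. Atrial cells were at 12.6 (3.96 to 16.3), ventricular cells at 10.46 (8.40 to 12.4), and canal cells at 1.83 (0 to 2.53). The sinus exceeded the atrium 8.78-fold, and the atrium exceeded the canal 6.91-fold, with no overlap in either pair. Another 293 cells passed both the epicardial and cushion gates and held 319.9, and 90 that passed the epicardial and cardiomyocyte gates held 327.1. The cells set aside for passing several gates thus held 26.6% of all Tbx18 UMIs. In the epicardial gate the heart muscle gene Myl7 was at 1076 (857 to 1185) against 8648 in the ventricular gate, while Actc1 was at 44.3 against 11143. The part of heart muscle RNA in the levels of Tbx5 (17.6) and Tbx20 (40.0) measured in the epicardial gate was not tested. The gate was also not uniform. With each cell thinned to 20000 UMIs, 754 of its cells had Tbx18 and 96 had none. Tbx2 was in 4.5% and 47.9% of these, Tbx3 in 2.4% and 49.0%, and Tbx5 in 19.0% and 49.0%. The share was higher with Tbx18 in 0 of 6 libraries for Tbx2 and Tbx3, and in 1 of 6 for Tbx5. The identity of the cells without Tbx18 was not tested.

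Tbx4, a partner of Tbx5 in the mesenchyme of the lung and trachea, had its 2 leading levels among the 21 gates in splanchnic mesoderm. It held 53.5 CPM on the foregut side (70.3, 52.1, 36.1 and 64.3 in the 4 libraries with at least 20 such cells) and 19.9 on the heart field side (12.7 and 37.1 in the 2 such libraries). The ratio was 2.69 (2.17 to 3.38), higher in both libraries that held enough cells of each, with overlapping ranges. The 433 splanchnic cells on neither side stood between them at 29.8 (1.38 to 37.6 over 5 libraries) and are not among the 21 gates. Of the 221 foregut-side cells, libraries 1 and 2 held 1 each. The outflow gate followed at 1.86 (0.459 to 4.19) and the canal gate held 2 Tbx4 UMIs in all, 0.141 CPM, where erythroid cells held 0.0317.

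**Figure D2:**
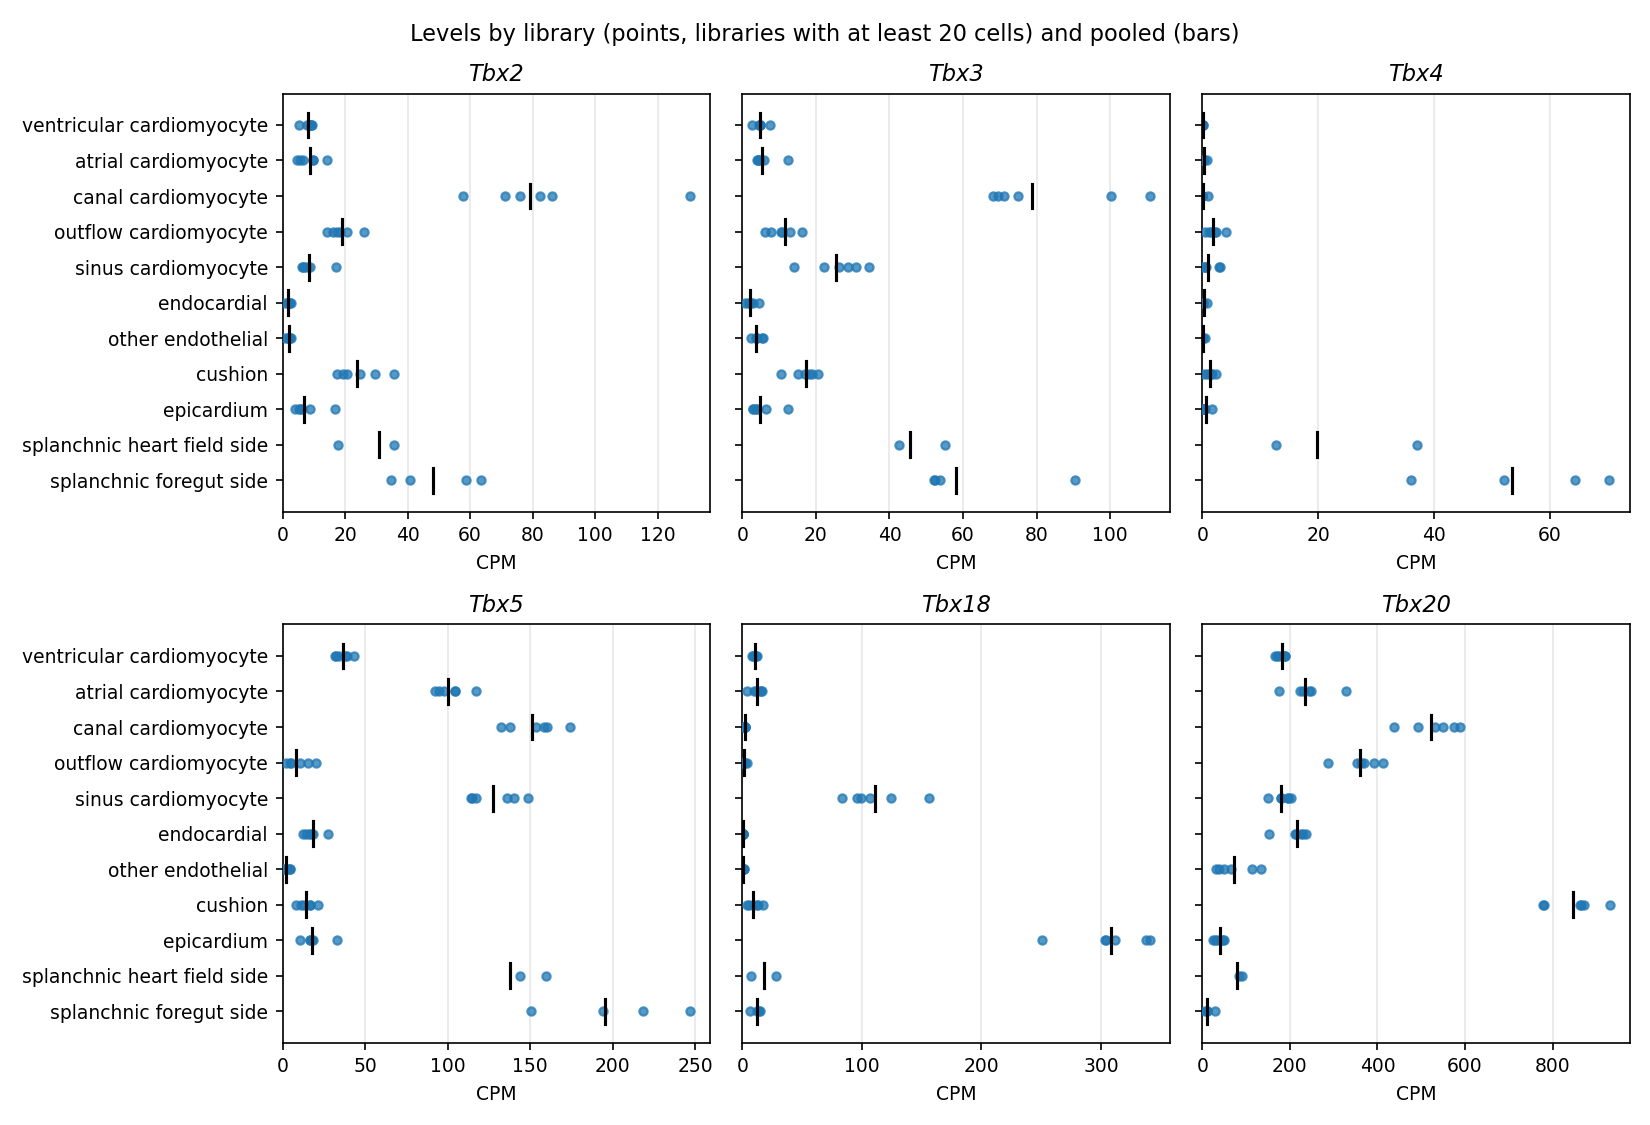
Levels of each T-box gene (x axis, CPM) in the heart, endothelial, epicardial and splanchnic gates (y axis). Points are libraries with at least 20 cells in the gate and black bars are pooled levels. Canal points of Tbx2 and Tbx3 lie above all ventricular and atrial points, and Tbx5 points climb from outflow to ventricle, atrium and canal.

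Set against all genes, 2 of the 6 members, Tbx4 and Tbx18, were at least 2-fold higher in their leading gate than in the next, where 12.8% of 12193 genes that reached 10 CPM in a gate were. With the looser gates 1 member passed. The median ratio of the members was 1.58, and that of all these genes 1.13. The ratios of Tbx2, Tbx3, Tbx5 and Tbx20 were under 2-fold, with intervals above 1. The leading and next gates were picked from these same counts, so no such ratio can fall below 1. The intervals are therefore no test of the order. Without library 1, which stands apart, the ratios over the same pairs of gates were 1.47 for Tbx2, 1.38 for Tbx3, 2.28 for Tbx4, 1.30 for Tbx5, 2.64 for Tbx18 and 1.59 for Tbx20. The heart field side was then next for Tbx5, with a ratio of 1.28.

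The share of cells with at least 1 UMI was also read. Thinned to 5000 UMIs per cell, Tbx2 was found in 33.2% of canal cells (exact binomial interval 28.3 to 38.5) and in 5.43% of ventricular cells, where the unthinned shares were 85.8% and 24.8% at median depths of 36672.5 and 55104 UMIs. For Tbx18 the thinned shares were 70.4% of epicardial and 33.0% of sinus cells, and for Tbx20 88.1% of cushion and 85.3% of canal cells. For Tbx4 the thinned share was 25.3% of foregut-side cells, 65.6% unthinned. In erythroid cells, with a median depth of 64432 UMIs, the thinned shares of the 6 genes were at most 0.281%, and no Tbx4 or Tbx5 UMI was left in 1421 cells, which, at 3 counts of the total, allows a share of up to 0.211%. No cell of these gates was under 5000 UMIs.

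Many cells carried several members at once. With every cell thinned to 20000 UMIs, a canal cell had a median of 3 of the 6 genes and 83.4% of 338 canal cells had 3 or more. Among the single gates counted in this way, the foregut side of the splanchnic mesoderm followed with 60.3% of 214 cells. The sinus gate came next with 50.1% of 461 cells. The heart field side of the splanchnic mesoderm was not counted. In the ventricular gate 18.6% had 3 or more, in the outflow gate 8.65%, and in crest mesenchyme 1.40%. Every one of 234 canal cells with Tbx2 also had Tbx20 (exact binomial interval from 98.4%), as did 99.0% of the 104 without. Tbx5 was in 89.3% of canal cells with Tbx2 and 78.8% of those without, higher in 3 of 5 libraries.

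**Figure D3:**
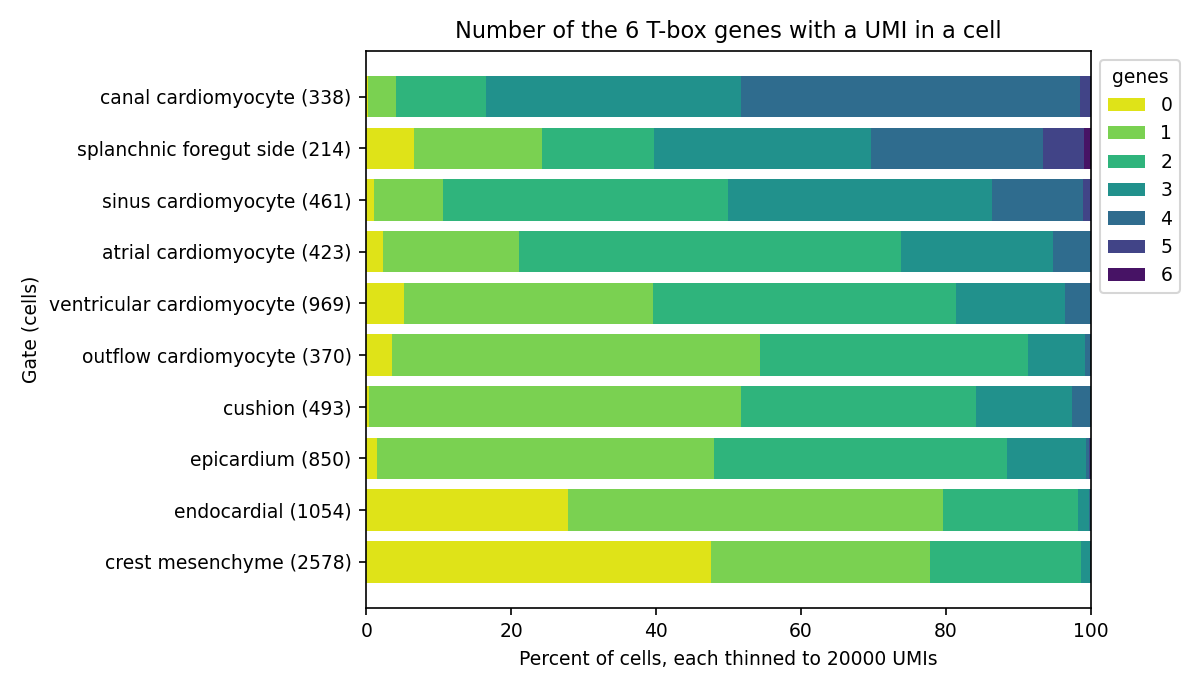
Percent of cells (x axis) in 10 gates (y axis, with cells after thinning to 20000 UMIs) by how many of the 6 T-box genes had a UMI, from 0 (yellow) to 6 (dark violet). In the canal gate 83.4% of cells had 3 or more, and in crest mesenchyme 1.40%.

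Tbx3 was more frequent in cells that carried Tbx2. Among 3007 cardiomyocytes, Tbx3 was present in 43.4% of the 693 cells with Tbx2 (39.7 to 47.2) and in 16.3% of the 2314 without (14.9 to 17.9), higher in 6 of 6 libraries. Within the canal gate alone the shares were 76.1% and 60.6%, higher in 5 of 5 libraries. The same held in 2578 crest mesenchyme cells, a tissue with little Tbx5, where Tbx3 was in 48.0% of cells with Tbx2 and 13.9% of cells without, in 6 of 6 libraries.

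Tbx2 was less frequent with Tbx18 in heart muscle as a whole and in the sinus and ventricular gates. The atrial gate showed no such difference, and the canal and outflow gates had few cells with Tbx18. Of 510 cardiomyocytes with Tbx18, 8.43% had Tbx2, against 26.0% of the 2497 without, lower in 6 of 6 libraries. Inside the sinus gate the shares were 5.26% and 17.8%, again lower in 6 of 6, and in the ventricular gate 3.70% and 16.1%, lower in 6 of 6. In the atrial gate they were 14.8% of 54 cells and 14.1% of 369, higher in 2 of 3 libraries. Read the other way, Tbx18 was in 6 of 234 canal cells with Tbx2 and 1 of 104 without, and in 2 of 97 and 5 of 273 outflow cells, counts at which a lower frequency was not detectable. Tbx5 was in 67.5% of all cardiomyocytes with Tbx18 and in 53.0% of those without, higher in 6 of 6. In the sinus gate the direction was the reverse, with 77.3% and 90.7%, lower in 6 of 6. In splanchnic cells, Tbx4 was in 44.1% of the 558 cells with Tbx5 (39.9 to 48.3) and in 8.38% of the 179 without (4.77 to 13.4), higher in 5 of 5 libraries.

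Cardiomyocytes with Tbx2 held less of the chamber genes. Each cell was thinned to 20000 UMIs, and list genes that are not markers of the gate being split and reached 10 CPM were compared between cells with and without a UMI of the member. Of 6 chamber genes compared, 5 were at least 1.5-fold lower in cells with Tbx2, in the same direction in 6 of 6 libraries, where 1.02% of 8397 genes were, and none was higher. Nppa, which encodes the atrial natriuretic peptide and is a working chamber marker, was at 114 CPM in cells with Tbx2 (78.6 to 199 by library) and at 757 in cells without (583 to 1023), with no overlap. The ratio was 0.151 (0.143 to 0.159). The gap junction gene Gja1 had a ratio of 0.301, the small muscle protein gene Smpx 0.373 and the transcriptional coregulator gene Cited1 0.405. Atp2a2, the calcium pump of the sarcoplasmic reticulum, was the chamber gene that did not pass.

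The canal and cushion signals divided in cells with Tbx2. Bmp2, a canal signal and itself a marker of the canal gate, was at 191 against 39.5, the matrix enzyme gene Has2 at 23.5 against 6.83, and Tgfb2, a ligand that promotes cushion formation, at 207 against 111. These 3 of 7 genes were higher, where 3.08% of all genes were. The Notch targets Hey1 and Hey2 and the growth gene Mycn were lower, with ratios of 0.496, 0.494 and 0.620. Among 8 partner genes compared Nkx2-5 alone passed, at 233 against 154.

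The contrast was repeated inside single gates, with 4 to 6 libraries compared in each. A gene called over fewer than 6 libraries falls outside the naming rule and was named after its values were seen. In the ventricular gate, 136 cells with Tbx2 and 833 without gave the same 5 of 6 chamber genes lower, where 1.01% of 7852 genes were. Nppa was at 214 (50 to 497 by library) against 960 (561 to 1272), a ratio of 0.223 (0.205 to 0.243) in 6 of 6 libraries. Tgfb2 was 3.48-fold higher and Wnt2, a marker of the posterior heart field and lung mesoderm, 4.04-fold higher, where 2.04% of genes passed in that direction. In the canal gate, where Nppa stood at 50.1 CPM over all cells, 4 of the chamber genes could be compared, over 5 libraries. Of these 1 was lower with Tbx2 (Smpx, ratio 0.606), beside 0.842% of 8430 genes, and Wnt2 was 1.51-fold higher, beside 1.97%.

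With Tbx3, the same 5 chamber genes were lower in heart muscle as a whole. In 679 cells with Tbx3, 5 of 6 were lower, where 1.38% of genes were, with Nppa at 111 (28.8 to 256 by library) against 754 (619 to 996) in the 2328 cells without. Bmp2 was 5.45-fold, Has2 2.79-fold and Tgfb2 1.75-fold higher, beside 3.35% of genes, while Hey1 (ratio 0.523), Hey2 (0.601) and Mycn (0.663) were lower. Wnt2, at 246 against 121, was higher in Tbx3 cells in 6 of 6 libraries. In the ventricular gate 1 of 6 chamber genes passed (Cited1, ratio 0.440 over 4 libraries), beside 2.02% of genes, and no list gene was called higher, beside 3.03%. In the canal gate none of 4 chamber genes was lower, beside 0.842%, and Has2 was 1.55-fold higher over 5 libraries, beside 1.52%.

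Tbx3 and Tbx18 were each read within the sinus gate, where 44.6% of cells with Tbx3 also had Tbx18, against 57.1% of those without, higher in 1 of 6 libraries. In 130 sinus cells with Tbx3, Smpx was at 92.7 CPM and in the 331 without it at 165. It was among the 2 of 6 chamber genes that were lower, where 1.54% of 8617 genes did. Among other list genes Hey1 was lower, at 13.1 against 29.9, while Hand2 (93.8 against 61.8) and Wnt2 (716 against 382) were higher, beside 0.836% of genes.

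In 247 sinus cells with Tbx18, Nkx2-5, the homeobox partner of T-box activators, was at 7.69 CPM (1.25 to 12.5 by library). The 214 sinus cells without Tbx18 held 144 (128 to 173), with no overlap, and the ratio was 0.0533 (0.0373 to 0.0740). It was 1 of 7 partner genes that passed as lower, beside 2.04% of genes. Gja1 was 3.20-fold higher (17.2 against 5.37) and Tgfb2 1.69-fold higher with Tbx18, beside 3.24% of genes. Over all cardiomyocytes the Nkx2-5 ratio with Tbx18 was 0.432, and 2 of 8 partners (Nkx2-5 and Hand2) were lower, beside 3.26% of genes. There 3 of 6 chamber genes were higher with Tbx18 (Gja1 1.798-fold and Smpx 1.61-fold among them), beside 2.72% of genes, the reverse of the direction with Tbx2. Of 7 canal and cushion signals, Hey2 was higher (1.68-fold) and Bmp2 (ratio 0.620) and Has2 (0.387) were lower, and of 2 foregut signals Wnt2 was higher (1.97-fold). The split over all cardiomyocytes pools regions that differ in Tbx18, such as the sinus (111 CPM) and the canal (1.83). For Tbx18 it was repeated in the sinus gate only, where 1 of 6 chamber genes was higher.

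**Figure D4:**
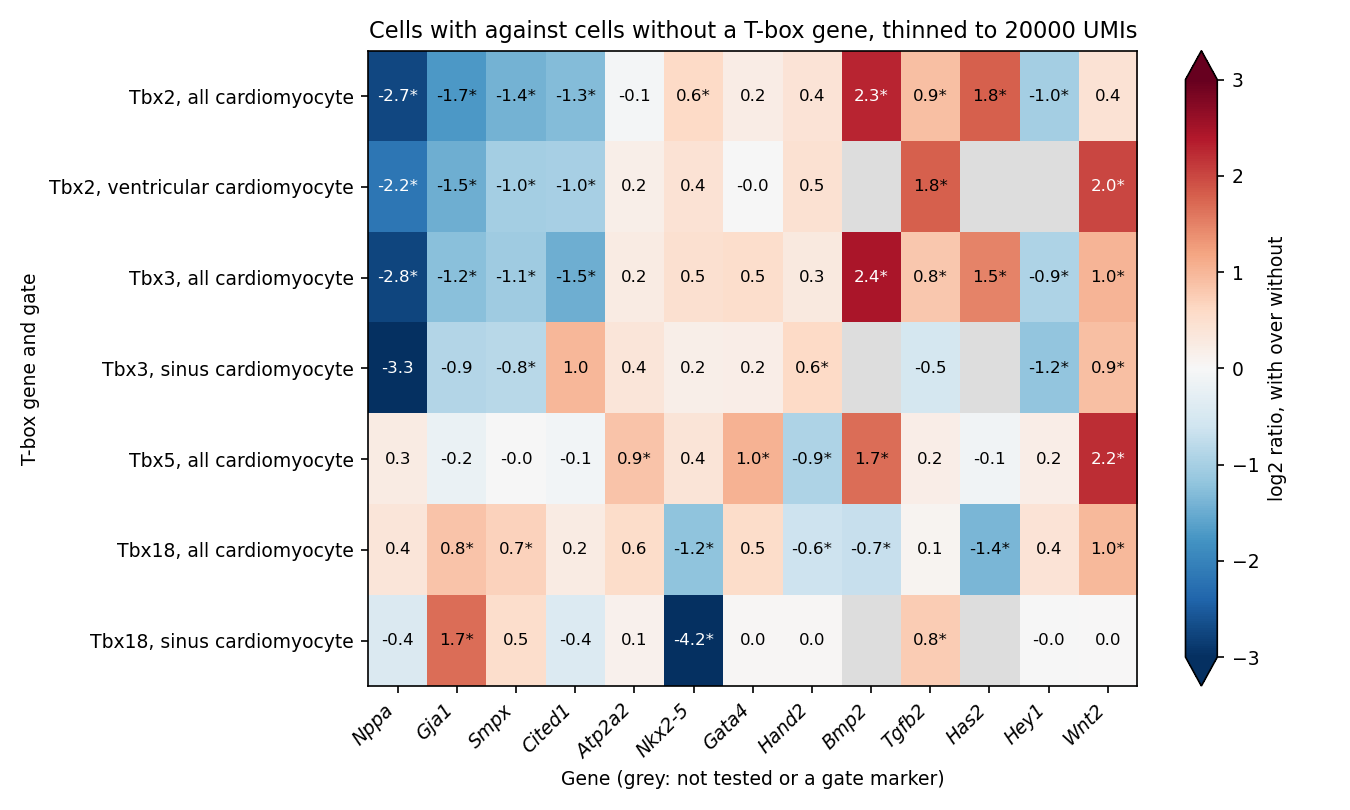
Log2 ratio of the level in cells with a T-box gene over cells without it (colour and number), for 13 genes (x axis) and 7 splits (y axis), with each cell thinned to 20000 UMIs. A star marks at least 1.5-fold in the same direction in every library compared. The 13 genes were chosen from the lists after their values were seen. Nppa is blue in the Tbx2 and Tbx3 splits and Nkx2-5 is at its lowest for Tbx18 in the sinus gate.

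Cells with Tbx5 showed another pattern. Among 1667 cardiomyocytes with Tbx5, 2 of 6 chamber genes were higher than in the 1340 without, where 3.6% of genes were. Atp2a2 was at 742 CPM (647 to 902 by library) against 411 (385 to 465), with no overlap. The partner Gata4 was 2.05-fold higher, at 230.0 against 112. The heart field gene Isl1 was at 34.7 (33.3 to 38.3) against 140.1 (127 to 163) and Hand2 at 66.4 against 126, so 2 of 8 partners were lower, beside 2.86% of genes. Wnt2 was 4.66-fold and Bmp2 3.19-fold higher, and Bmp4, an outflow gate marker, had a ratio of 0.642. Inside the ventricular gate no list gene passed for Tbx5, where 0.522% of genes were higher and 0.344% lower. Inside the atrial gate Nppa was lower with Tbx5 in 5 of 5 libraries, at 1207 against 2709, beside 0.246% of genes, and Gata5 and Wnt2 were higher, beside 3.6%.

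In splanchnic mesoderm the members were read against the foregut and lung signals. These splits pool the foregut side, the heart field side and the cells on neither, which held 53.5, 19.9 and 29.8 CPM of Tbx4. They were not repeated inside a single side. Of 737 cells, 261 had Tbx4, and both signals compared were higher in them over 4 libraries, where 1.83% of 8739 genes were. Wnt2 marks the splanchnic gate and was left out. Fgf10, the ligand that drives lung budding, was at 75.5 CPM (38.5 to 104.7 by library) against 19.3 (4.84 to 26.0), with no overlap over 4 libraries and a ratio of 3.91 (3.27 to 4.68). Bmp4 was at 157 against 98.1. Of 9 partners 4 were lower with Tbx4, beside 1.96% of genes, namely Nkx2-5 (ratio 0.141), Hand2 (0.422), Sall4 (0.458) and Mef2c (0.635), and Gata4 and Gata5 were higher, by 1.59-fold and 1.79-fold.

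With Tbx5, 1 of 2 foregut signals passed, Bmp4 at 141 against 50.6, beside 2.49% of genes. Of 4 canal and cushion signals, a list that also holds Bmp4, 2 were higher with Tbx5 and 1 with Tbx4. Of 9 partners 3 were higher with Tbx5, in 5 of 5 libraries. They were the zinc finger genes Gata4 (2.71-fold), Gata5 (3.56-fold) and Gata6 (1.89-fold). With Tbx2, Fgf10 (3.46-fold) and Gata5 (1.74-fold) were higher in 5 of 5 libraries, beside 0.79% of genes. With Tbx3, Gata4 (2.16-fold) and Gata5 (1.66-fold) were higher, beside 1.04%, and Hand2 (ratio 0.636) and Sall4 (0.648) lower, beside 1.13%. Neither foregut signal passed with Tbx3, Fgf10 being at 65.0 against 18.7 and higher in 4 of 5 libraries. Tbx1, the T-box gene of the pharynx, was lower in splanchnic cells with each of the 4 members. Its level was 9.52 against 25.3 with Tbx2, 4.29 against 30.9 with Tbx3, 1.92 against 28.6 with Tbx4 and 5.73 against 60.9 with Tbx5, beside 0.881%, 1.13%, 1.96% and 2.09% of genes lower in these splits. The muscle gene Smpx was higher with all 4, from 2.99-fold with Tbx2 to 4.38-fold with Tbx5, and Ryr2, a marker of the cardiomyocyte gate, was 4.32-fold higher with Tbx5 (160 against 37.2). Ventricular cells held 531 of Smpx and 768 of Ryr2, and the part of heart muscle RNA in the splanchnic contrasts was not tested.

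For each member the genes with the most similar pattern over the 21 gates were ranked by the Pearson correlation of log2(CPM + 1), among 12074 genes that are neither gate markers nor members. The 21 points share libraries and cells of unequal depth, so the values are a description. The most similar gene to Tbx2 was 2610027K06Rik (r = 0.875), to Tbx3 Tbx3os1 (r = 0.895) and to Tbx5 Gm43050 (r = 0.961). Each of these is a non-coding gene on the opposite strand that begins near the member's start. The genes 2610027K06Rik and Gm43050 begin outside the member and run away from it. Tbx3os1 begins inside Tbx3 and runs back across its start.

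The gene 2610027K06Rik (chromosome 11, 85791661 to 85832223, minus strand) ends its span 327 bases before Tbx2. In canal cells it was at 29.3 CPM (23.8 to 49.7 by library), in outflow cells at 12.3 (9.27 to 14.7) and in ventricular cells at 3.61 (1.81 to 4.86). Crest mesenchyme held 9.89 of its UMIs per 100 Tbx2 UMIs, against 37.1 in canal cells. The canal value was the lowest of the heart muscle gates, with 37.2 in sinus, 44.1 in ventricular, 46.3 in atrial and 64.4 in outflow cells. In single cardiomyocytes it was found in 32.0% of cells with Tbx2 and 9.16% of cells without, and in crest mesenchyme in 17.0% and 3.21%, higher in 6 of 6 libraries in both.

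Tbx3os1 (chromosome 5, 119570130 to 119671365, minus strand) overlaps the first 697 bases of Tbx3. Canal cells held 41.5 CPM of it (33.2 to 72.5), and the next gate, the foregut side, 12.8 (4.20 to 29.3). It was in 25.3% of cardiomyocytes with Tbx3 and 3.52% of those without, in 6 of 6 libraries, and in 25.3% and 6.04% of crest mesenchyme cells. Whether the counting used the strand is not given in the sources used here, so reads from the shared bases of Tbx3 and Tbx3os1 may not be told apart.

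Gm43050 (chromosome 5, 119828448 to 119831920, minus strand) lies 747 bases before Tbx5 without overlap. It peaked with Tbx5 on the foregut side at 28.6 CPM (25.2 to 37.0 over 4 libraries), and stood at 14.8 on the heart field side, 14.3 in sinus cells (12.5 to 18.7) and 3.997 in ventricular cells (3.67 to 4.63). Outflow cells, low in Tbx5, held 0.344 of it. In splanchnic cells it was present in 37.5% of cells with Tbx5 and 9.50% without, in 4 of 5 libraries.

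Beside Tbx20, the gene Gm29824 (chromosome 9, 24776467 to 24806024, plus strand) begins 2.16 kb away on the opposite strand and was looked up after the pattern of the other members had been seen. It ranked 111 of 12074 in similarity to Tbx20 (r = 0.782). It was highest in canal cells at 25.4 CPM (18.2 to 33.4), against 5.02 in atrial and 4.82 in cushion cells, so its leading gate was not the cushion gate that led for Tbx20.

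**Figure D5:**
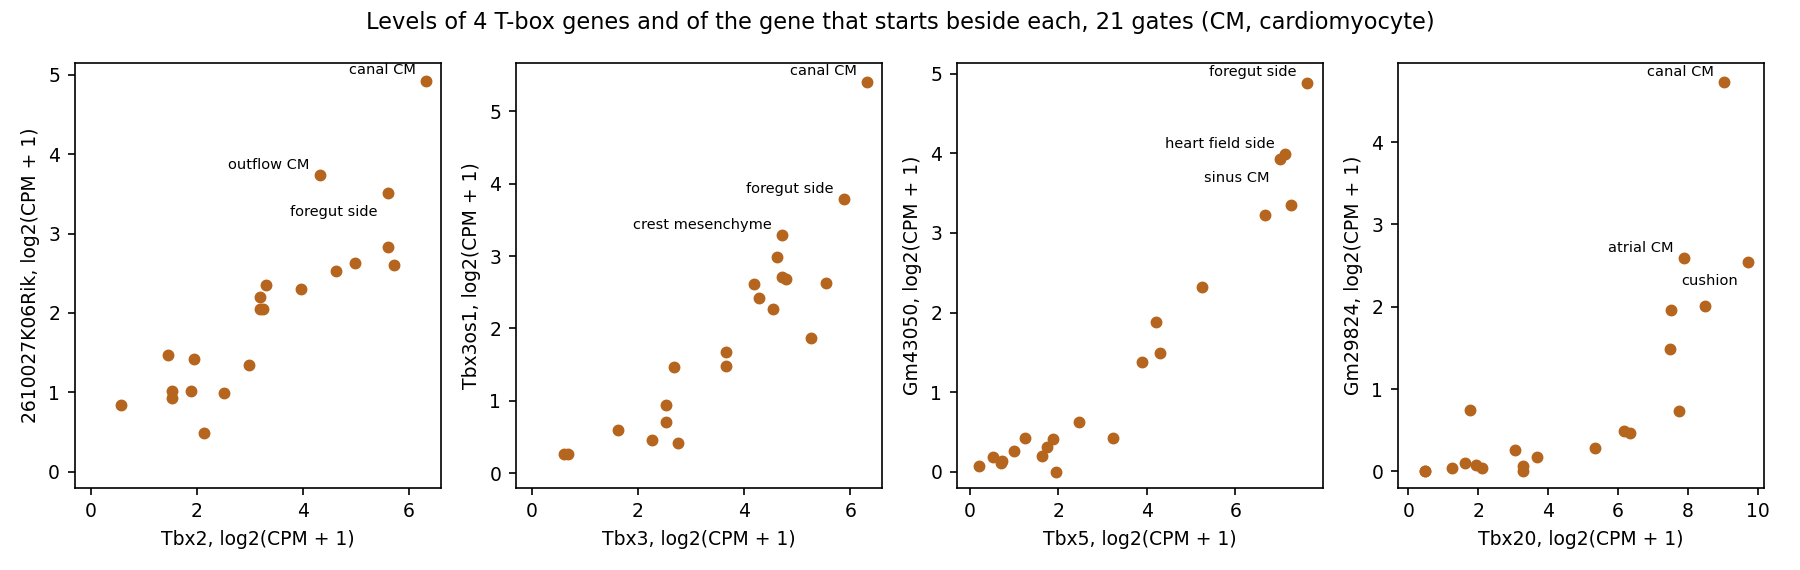
Level of each non-coding neighbour (y axis) against its T-box gene (x axis), both as log2(CPM + 1), with 1 point per gate and the 3 highest gates named. The canal gate is highest for 2610027K06Rik, Tbx3os1 and Gm29824, and the foregut side for Gm43050.

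The other similar genes are given by member. For Tbx4 they were Fendrr (r = 0.944), Foxl1 (r = 0.930) and Gcg (r = 0.917). Fendrr and Foxl1 lie 1275 bases and 39.8 kb from Foxf1 on chromosome 8, and Foxf1 is a marker of the splanchnic gate. For Tbx5 they included Zfpm2 (r = 0.837), a cofactor of GATA factors. Tbx18 was followed by Enpep (r = 0.837), Col6a1 (r = 0.825) and Ndst4 (r = 0.814), and Tbx20 by E130006D01Rik (r = 0.946), Defb42 (r = 0.928) and Hcfc2 (r = 0.914). Prrx1, a gene of crest mesenchyme (r = 0.779), and Tbx3os1 (r = 0.768) completed the list for Tbx2, and Zfp811 (r = 0.851) and Lig4 (r = 0.850) that for Tbx3. Between members the highest values were Tbx5 with Tbx20 (r = 0.706) and Tbx2 with Tbx3 (r = 0.699), and the lowest Tbx4 with Tbx20 (r = 0.0667).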

How the data were processed

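The authors deposited 1 pooled matrix of raw UMI counts per gene and cell. Per the file headers, Cell Ranger 5.0.0 made it. CASAVA 1.8, Seurat 4 and build mm10 also stand in the submitters' processing notes. For strand settings, author filters and a doublet step, the sources used here give nothing. No value column was left unmapped (0). Cells passing several gates were set aside, which was the doublet treatment. Marker thresholds were set from marker counts alone. Levels are UMIs of a gene per 1000000 UMIs of its gate (CPM), per library where it had at least 20 cells. Splits used cells thinned to 20000 UMIs with at least 10 cells on each side per library, genes of at least 10 CPM, and named list genes changed 1.5-fold or more in the same direction in all 6 libraries. List genes called over the 4 or 5 libraries with enough cells were named after their values were seen. Also named were the 6 members and the 3 most similar genes of each. Members and lists were chosen with earlier results of these data known. Intervals (95%, exact Poisson or Clopper-Pearson) cover counting error only, and 3 counts is the limit a count of 0 allows. Python 3.11.15, numpy 2.4.6, pandas 2.3.3 and scipy 1.17.1 were used, and the calculations were tested on simulated data. Alternatives were other cell limits, stricter and looser gates, thinning, shared barcodes, equal library weights, the deepest 5% of cells and each library left out. Values of 2 genes that enter the counts are not reported here.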

Additional observations from a re-analysis of the deposited data

How the results depend on the processing

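No paired analysis was possible because the library numbers in the barcodes are not tied to samples or treatments. Under 13 alternatives, 77 of 78 leading gates were kept, and 57 of 78 ratios of the reported leading gate to the reported next gate stayed within its counting interval. All ratios below keep that pair of gates unless another is named. Leaving out each library in turn gave ratios of 1.44 to 1.66 for Tbx2, 1.24 to 1.44 for Tbx3, 2.28 to 3.69 for Tbx4, 1.20 to 1.38 for Tbx5, 2.64 to 2.98 for Tbx18 and 1.58 to 1.66 for Tbx20, with 2 members past 2-fold each time. Stricter gates gave 1.40 for Tbx2, 1.68 for Tbx3, 1.39 for Tbx5, 3.16 for Tbx18 and 1.82 for Tbx20. Thinning to 5000 UMIs gave 1.93 for Tbx2, 1.45 for Tbx5, 2.52 for Tbx18 and 1.74 for Tbx20, and leaving out the 2890 cells with a barcode copy anywhere in the matrix gave 1.72 for Tbx2. The 57 canal cells among them held 54.8 CPM of Tbx2 at a median of 60904 UMIs, and the other canal cells 87.5 at 34408. Looser gates, in which 50% of the markers was enough, chosen after seeing the data, gave 1.67 for Tbx2, 1.72 for Tbx3, 1.05 for Tbx5 and 1.67 for Tbx18, which left 1 member past 2-fold. They turned Tbx20 to 0.897, with the canal leading at 508 CPM over the cushion gate at 456, and the cause was not tested. Another gate came next in some of these. For Tbx2 the fold over it was 1.60 (crest glia) after thinning, and 1.60 and 1.56 (crest glia) without library 2 and 4. Without library 5 it was 1.57 (foregut side). For Tbx3 it was 1.15 (heart field side) after thinning and 1.67 (paraxial mesoderm) with looser gates. For Tbx5 it was 1.17, 1.24 and 1.28 (heart field side) after thinning, with stricter gates and without library 1. Low Tbx4 and Tbx18 counts in canal cells and the 2 to 4 libraries behind the splanchnic sides limit precision there.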

Other observations

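Tbx2 and Tbx3 were also present in tissue beside the heart. Crest mesenchyme, gated by Dlx1, Dlx2, Dlx5, Dlx6, Prrx2 and Alx4, held 21.98% of all Tbx2 UMIs and 11.5% of all Tbx3 UMIs. Its 2646 cells were 7.36% of the retained cells. Tbx2 was at 51.5 CPM in the crest and 23.0 over all retained cells. For Tbx3 the levels were 25.3 and 21.7, so Tbx3 in the crest was near its general level. Tbx5 stood at 0.629 CPM in the crest and Tbx18 at 0.668, where erythroid cells held 0.148 and 0.286 and myeloid cells 2.82 and 0.806. Of 739 crest cells with Tbx3, 72.4% also had Tbx2, against 31.5% of the 1839 without, higher in 6 of 6 libraries.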
